A study of Mus musculus with 18 samples.

Results

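The genes described here are 66 genes of symbol families of the sperm tail and of cilia, taken from the 15780 genes that the array names. These families also hold genes of other functions, among them Spag9, of JNK signalling, and Spag4, of the nuclear envelope. The rule is by symbol and uses no measured value, though the rule and the lists of other genes below were set with earlier results of these data known. The families are axonemal dynein heavy chains (Dnah, 8 genes), axonemal dynein light chains (Dnal, 2 genes), tektins (Tekt, 5 genes), radial spoke head proteins (Rsph, 4 genes), ropporins (Ropn1 and Ropn1l, 2 genes), cilia and flagella associated proteins (Cfap, 21 genes), sperm associated antigens (Spag, 10 genes) and intraflagellar transport proteins (Ift, 14 genes). The rule also covers Dnai symbols, of which the array named 0. The study asked what follows in meiosis when unsynapsed chromatin of the autosomes is extended, and it set males of 2 stocks with the T43 chromosome against fertile males on 18 arrays. Pre-mid-pachytene spermatocytes were sorted by fluorescence from 2-month-old t12+/+T43 males (n = 3), Ttf+/+T43H males (n = 3) and C57BL/10J males (n = 2). Spermatocytes of the mid-late-pachytene stage came from further C57BL/10J samples (n = 2). Whole testes without their tunica came from 15-day-old t12+/+T43 males (n = 3), Ttf+/+T43H males (n = 3) and C57BL/6J males (n = 2). Both carrier stocks were kept on C57BL/10J, so in the testes strain and genotype cannot be told apart, and within each tissue both carriers were compared with the same control arrays. The design text calls the replicates biological.

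An axoneme is a ring of doublet microtubules around a central pair. Outer and inner dynein arms, motors built on the Dnah heavy chains, slide the doublets, and radial spokes and the central apparatus control them. Tektins and other proteins line the inside of the doublets, and intraflagellar transport carries cargo along the axoneme while it is built. In the mouse testis the tail is built in spermatids after meiosis, while transcripts of many of its parts are already made in pachytene spermatocytes.

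Values are the authors' log2 expression values. A log2 value of 4 was used as the level under which a value carried little signal. Averaged over the 66 genes, the arrays read 7.46, 7.67 and 7.18 in t12+/+T43 pre-mid-pachytene cells and 8.11, 7.58 and 8.50 in Ttf+/+T43H cells. The C57BL/10J mid-late-pachytene arrays read 10.60 and 10.67, and the C57BL/10J pre-mid-pachytene arrays 8.51 and 8.33. The mid-late arrays thus lay above all other sorted arrays. The t12+/+T43 arrays lay lowest, overlapping with 1 Ttf+/+T43H array. In the 15-day testes the averages were 5.97, 5.88 and 5.77 in t12+/+T43 males, 6.47, 6.31 and 6.17 in Ttf+/+T43H males and 6.64 and 6.48 in C57BL/6J males, with the t12+/+T43 testes below all others.

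**Figure D1:**
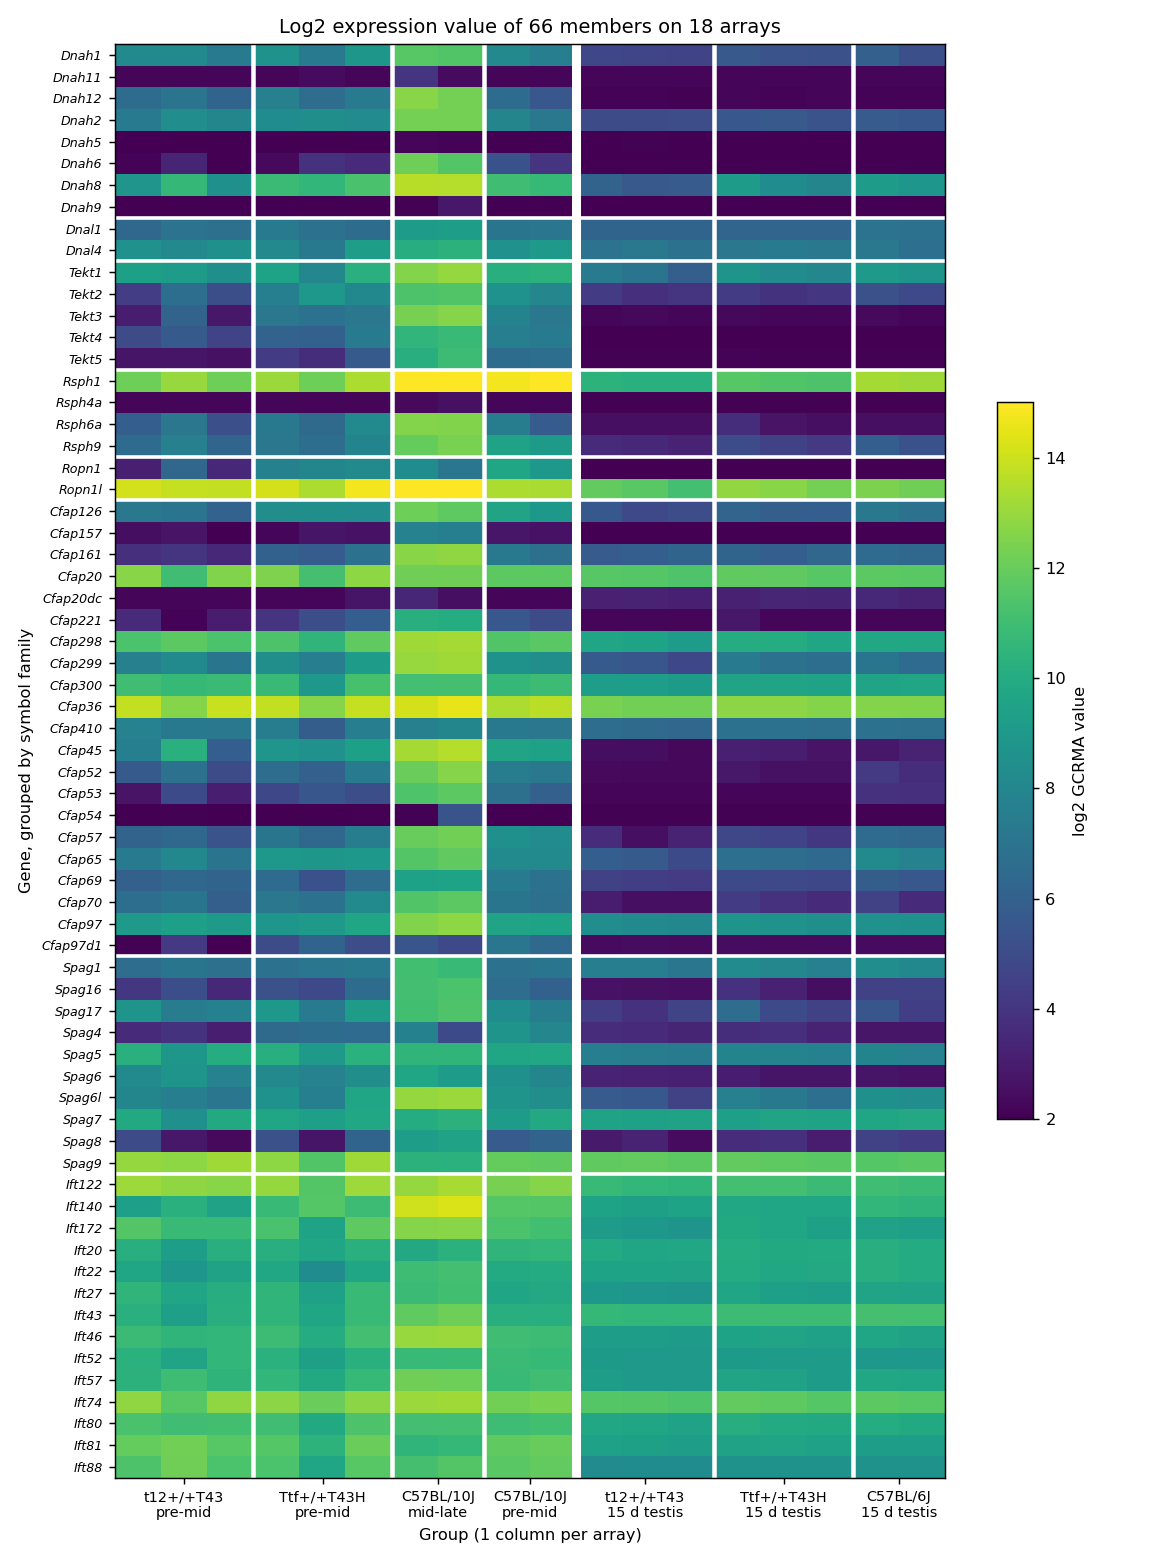
Log2 expression value (colour) of each of the 66 genes (rows, by symbol family) on each of the 18 arrays (columns, by group). The mid-late-pachytene columns are the brightest for most Dnah, Tekt, Rsph and Cfap rows, and many Dnah, Tekt and Cfap rows are dark in the testes.

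Testing required that 2 or more arrays of the tissue reached the level of 4. That held for 60 of the 66 genes in the sorted cells and for 45 in the testes. Dnah5, Dnah9, Dnah11, Rsph4a, Cfap54 and Cfap20dc passed in neither tissue. Dnah5, Dnah9 and Dnah11 are outer arm heavy chains and Rsph4a is a spoke head protein, all known from motile cilia of epithelia. Foxj1, the transcription factor that drives such multiciliated cells, read between 2.39 and 3.45 on all 18 arrays. The list of multiciliated cell genes that holds Foxj1 was not low throughout. Of its 9 genes on the array 5 were tested in the sorted cells. Of these, 3 rose and 1 fell in mid-late against pre-mid-pachytene C57BL/10J cells. Another 15 genes passed in the sorted cells only, among them Tekt3, Tekt4, Tekt5, Ropn1, Dnah6 and Dnah12, which read below 3 on every testis array.

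The sorted cells also held transcripts of other cell types. A list of 28 spermatid genes averaged 4.91, 6.42 and 4.78 in t12+/+T43 cells, 7.89, 8.15 and 8.31 in Ttf+/+T43H cells, 9.09 and 8.57 in mid-late C57BL/10J cells and 9.61 and 8.97 in pre-mid C57BL/10J cells. A list of 14 Sertoli cell genes averaged 7.70 to 8.87 in t12+/+T43 cells, 7.45 to 7.94 in Ttf+/+T43H cells, 4.33 and 4.54 in mid-late cells and 6.93 and 7.04 in pre-mid C57BL/10J cells. The difference between 3' and 5' Gapdh probe sets is a measure of RNA integrity and labelling. On the log2 scale it was 3.44 to 3.98 in t12+/+T43 and 3.26 to 3.91 in Ttf+/+T43H cells. It was 2.51 and 3.39 in mid-late and 2.86 and 2.93 in pre-mid C57BL/10J cells. The same difference for actin was 3.13 to 3.99 in t12+/+T43 and 3.06 to 4.41 in Ttf+/+T43H cells. For actin the C57BL/10J groups did not overlap, with 3.51 and 3.38 in mid-late and 2.49 and 2.51 in pre-mid cells. In the testes the difference was -0.12 to 0.14 for Gapdh and 1.11 to 1.37 for actin. Replicate 2 of each carrier group stood apart in the sorted cells: over all genes it correlated with the other arrays of its group at 0.980 and 0.975 in t12+/+T43 cells and at 0.974 and 0.963 in Ttf+/+T43H cells, while the other pair correlated at 0.992 in t12+/+T43 and at 0.995 in Ttf+/+T43H cells. Counts without both arrays, an alternative chosen after seeing the data, are given beside the results they change. For counts under this and the other alternatives the share over all genes is not given. They are therefore not read as particular to these genes. Fewer cells of a type and less RNA per cell cannot be told apart in these samples.

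Sequences around the transcription start were read from RefSeq (GRCm38.p6), which held a window of 300 bases (250 before the start, 50 after) for 54 of the 66 genes. The 250 bases before the start are shown 5′ to 3′ for the 4 genes with the largest measured falls in t12+/+T43 testes among those with a window, and for Cfap298, which lies on chromosome 16 and holds an X-box. Capitals mark letters of the MYB motif TAACNG, of the cyclic AMP response element (CRE) TGACGTCA or of the RFX motif GTTGCC, each searched on both strands. Cfap57 lies at chr4:118620786-118621035 on the minus strand, Spag6l at chr16:16829364-16829613 on the minus strand, Dnah8 at chr17:30626686-30626935 on the plus strand, Rsph9 at chr17:46144201-46144450 on the minus strand and Cfap298 at chr16:90934850-90935099 on the minus strand.
Cfap57: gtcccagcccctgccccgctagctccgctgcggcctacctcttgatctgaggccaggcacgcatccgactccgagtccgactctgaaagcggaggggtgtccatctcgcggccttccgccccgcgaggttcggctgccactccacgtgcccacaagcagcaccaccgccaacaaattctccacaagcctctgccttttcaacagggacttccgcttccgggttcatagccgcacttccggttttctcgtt
Spag6l: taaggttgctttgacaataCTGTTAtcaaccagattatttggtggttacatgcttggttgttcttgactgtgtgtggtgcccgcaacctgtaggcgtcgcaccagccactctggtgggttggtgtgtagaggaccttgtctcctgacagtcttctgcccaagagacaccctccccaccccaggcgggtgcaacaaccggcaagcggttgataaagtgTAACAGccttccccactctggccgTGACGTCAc
Dnah8: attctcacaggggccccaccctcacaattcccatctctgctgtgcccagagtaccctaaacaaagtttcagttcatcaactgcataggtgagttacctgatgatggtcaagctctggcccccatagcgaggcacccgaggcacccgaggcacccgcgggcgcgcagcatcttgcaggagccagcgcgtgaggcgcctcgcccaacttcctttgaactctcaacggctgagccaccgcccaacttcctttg
Rsph9: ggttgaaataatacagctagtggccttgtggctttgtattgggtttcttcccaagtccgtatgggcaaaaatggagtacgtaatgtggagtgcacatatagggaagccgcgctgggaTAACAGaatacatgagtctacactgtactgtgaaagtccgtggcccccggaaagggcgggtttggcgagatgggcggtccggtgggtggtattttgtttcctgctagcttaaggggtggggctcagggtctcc
Cfap298: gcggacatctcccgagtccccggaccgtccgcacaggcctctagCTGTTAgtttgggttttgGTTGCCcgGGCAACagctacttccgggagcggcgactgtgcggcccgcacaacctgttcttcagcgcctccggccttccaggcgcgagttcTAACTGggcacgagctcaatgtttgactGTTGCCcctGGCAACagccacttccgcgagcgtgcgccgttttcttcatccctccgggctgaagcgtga
Spag6l held the MYB letters at 231 to 226 and at 33 to 28 bases before the start, a CRE at 9 to 2 bases before it and an RFX motif at 35 to 40 bases after it. Rsph9 held 1 MYB match, and Cfap298 held 4 RFX motifs, of which the pair at 188 to 183 and 180 to 175 bases before the start makes up the X-box, the paired form of the RFX motif. Cfap298 also held the MYB letters at 206 to 201 and at 97 to 92 bases before the start and at 31 to 36 bases after it. Cfap57 and Dnah8 held none of these letters in the window. Over the 300-base windows, 26 of the 54 genes (48.1%) held the MYB letters in at least 1 window. They were in 23.3% of all 32851 single windows, and 23.2% of the 12585 array genes with a window held them in at least 1. The RFX motif was in 18 of 54 (33.3%), against 12.5% of single windows and 14.8% of array genes. The CRE was in 4 of 54 (7.41%), against 1.79% of single windows and 3.05% of array genes. The X-box was in 2 (Cfap298 and Cfap20dc, 3.70%), against 0.451% of single windows and 0.636% of array genes. These shares describe the letters only.

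Mid-late-pachytene C57BL/10J cells had higher levels of most axonemal transcripts than pre-mid-pachytene cells of the same strain. Of the 60 tested genes, 39 rose and 3 fell (limma, adjusted p under 0.05), while over all 9666 genes tested 26.2% rose and 30.3% fell. The median change of the 60 genes was 2.46 on the log2 scale, against -0.11 over all genes. The comparison rests on 2 arrays against 2. Of the 66 genes, 59 read at least 4 on all 4 of these arrays, and 41 of the 42 calls lie among them.

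The dynein heavy chains rose in all 5 tested cases. Dnah6, an inner arm heavy chain, read 12.12 and 11.52 in mid-late cells, against 5.26 and 4.01 in pre-mid cells, a change of 7.18 ± 0.67 (standard error, limma adjusted p = 3.2e-05). Dnah12, also of the inner arms, read 12.70 and 12.26 in mid-late cells, against 6.62 and 5.51 in pre-mid cells (6.42 ± 0.46, limma adjusted p = 7.6e-06). In both genes the groups lay more than 5 log2 units apart. Dnah1 and Dnah2, inner arm chains as well, rose by 3.71 ± 0.51 and 4.75 ± 0.36. Dnah8, an outer arm heavy chain of sperm, was already at 11.03 and 10.70 in pre-mid cells and read 13.61 and 13.55 in mid-late cells (2.72 ± 0.62, limma adjusted p = 0.0051). Of the light chains, Dnal1 rose by 2.16 ± 0.30, and Dnal4 did not pass (1.44 ± 0.56, limma adjusted p = 0.054).

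All 5 tektins, filament proteins of the doublet wall, rose. Tekt3 read 12.32 and 12.62 in mid-late cells, against 7.85 and 7.14 in pre-mid cells (4.98 ± 0.94, limma adjusted p = 0.0018). Tekt5 read 10.22 and 10.93 in mid-late cells, against 6.59 and 6.68 in pre-mid cells. Tekt4 read 10.57 and 10.80 in mid-late cells, against 7.57 and 7.29 in pre-mid cells. The mid-late arrays lay above the pre-mid arrays for each of these 3 tektins. Tekt1 rose by 2.53 ± 0.64, the smallest change of the family, and Tekt2 by 3.06 ± 0.71.

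The radial spoke heads divided. Rsph6a read 12.61 and 12.56 in mid-late cells, against 7.47 and 5.79 in pre-mid cells (5.95 ± 0.78, limma adjusted p = 0.00021), and Rsph9 read 11.94 and 12.40 in mid-late cells, against 9.47 and 9.09 in pre-mid cells (2.89 ± 0.52). Rsph1 read 15.00 and 15.45 in mid-late cells, against 14.77 and 15.17 in pre-mid cells, and the groups overlapped (0.25 ± 0.46, limma adjusted p = 0.69). Of the central apparatus genes, Spag6l, Spag16, Spag17, Cfap221 and Cfap69 rose by 2.39 to 4.87. Spag6l read 12.96 and 13.04 in mid-late cells, against 8.72 and 8.41 in pre-mid cells. Its close copy Spag6 rose by 1.18 ± 0.39, and probes of the 2 genes may share transcripts.

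Among the genes of the doublet lumen, Cfap161 read 12.67 and 12.85 in mid-late cells, against 7.23 and 6.78 in pre-mid cells (5.75 ± 0.38, limma adjusted p = 4.7e-06). Cfap53 read 11.40 and 11.71 in mid-late cells, against 6.80 and 5.99 in pre-mid cells, and Cfap52 read 12.01 and 12.62 in mid-late cells, against 7.49 and 7.18 in pre-mid cells. Each of these 3 genes lay at least 4 log2 units higher on every mid-late array. Outside the lumen, Cfap157 read 7.77 and 7.59 in mid-late cells, against 2.80 and 2.61 in pre-mid cells, which is below the level of 4. It reached that level on no other sorted array. Cfap157 thus passed the filter only through the mid-late arrays, and its rise, counted below, is not support for a difference. Over the family, 14 of 19 tested Cfap genes rose and 0 fell. The 5 that did not pass were Cfap20, Cfap36, Cfap300, Cfap410 and Cfap97d1, the last being the only negative one (-1.60 ± 0.74, limma adjusted p = 0.094).

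Intraflagellar transport genes moved less: 5 of 14 rose, 1 fell and 8 did not pass, with a family median of 0.92. Ift140, of the retrograde complex, had the largest rise, with 14.06 and 14.24 in mid-late cells, against 11.58 and 11.53 in pre-mid cells (2.59 ± 0.37, limma adjusted p = 0.00036). Ift57 read 12.19 and 12.15 in mid-late cells, against 10.81 and 11.01 in pre-mid cells. Ift81, a tubulin-binding protein of the anterograde complex, fell by 1.30 ± 0.47, with 10.53 and 10.68 in mid-late cells, against 11.85 and 11.97 in pre-mid cells. Ift52, of the same complex, read 10.77 and 10.81 in mid-late cells, against 10.84 and 10.72 in pre-mid cells, and the 95% interval of its change ran from -0.90 to 0.92.

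Spag9 and Spag4 also fell. Neither these falls nor that of Ift81 passed in every alternative run. Over those runs the change ranged from -1.65 to -1.05 for Spag9 and from -3.47 to -0.68 for Spag4. For Ift81 it ranged from -1.38 to -0.79. Spag9, a scaffold protein of JNK signalling, read 10.36 and 10.29 in mid-late cells, against 11.94 and 11.85 in pre-mid cells (-1.57 ± 0.47, limma adjusted p = 0.019). Spag4, a SUN domain protein of the nuclear envelope, read 7.70 and 4.91 in mid-late cells, against 8.74 and 8.02 in pre-mid cells, so that the 2 mid-late arrays differed by more than 2 log2 units. The ropporins, proteins of the sperm fibrous sheath, differed in direction: Ropn1l rose by 1.80 ± 0.40, while Ropn1 read 8.32 and 7.12 in mid-late cells, against 9.67 and 8.93 in pre-mid cells, and did not pass (-1.58 ± 0.93, limma adjusted p = 0.18). Along with these changes the Sertoli list was lower in mid-late cells and the actin 3' to 5' difference was higher, by the levels given above. Their part in the result was not tested.

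**Figure D2:**
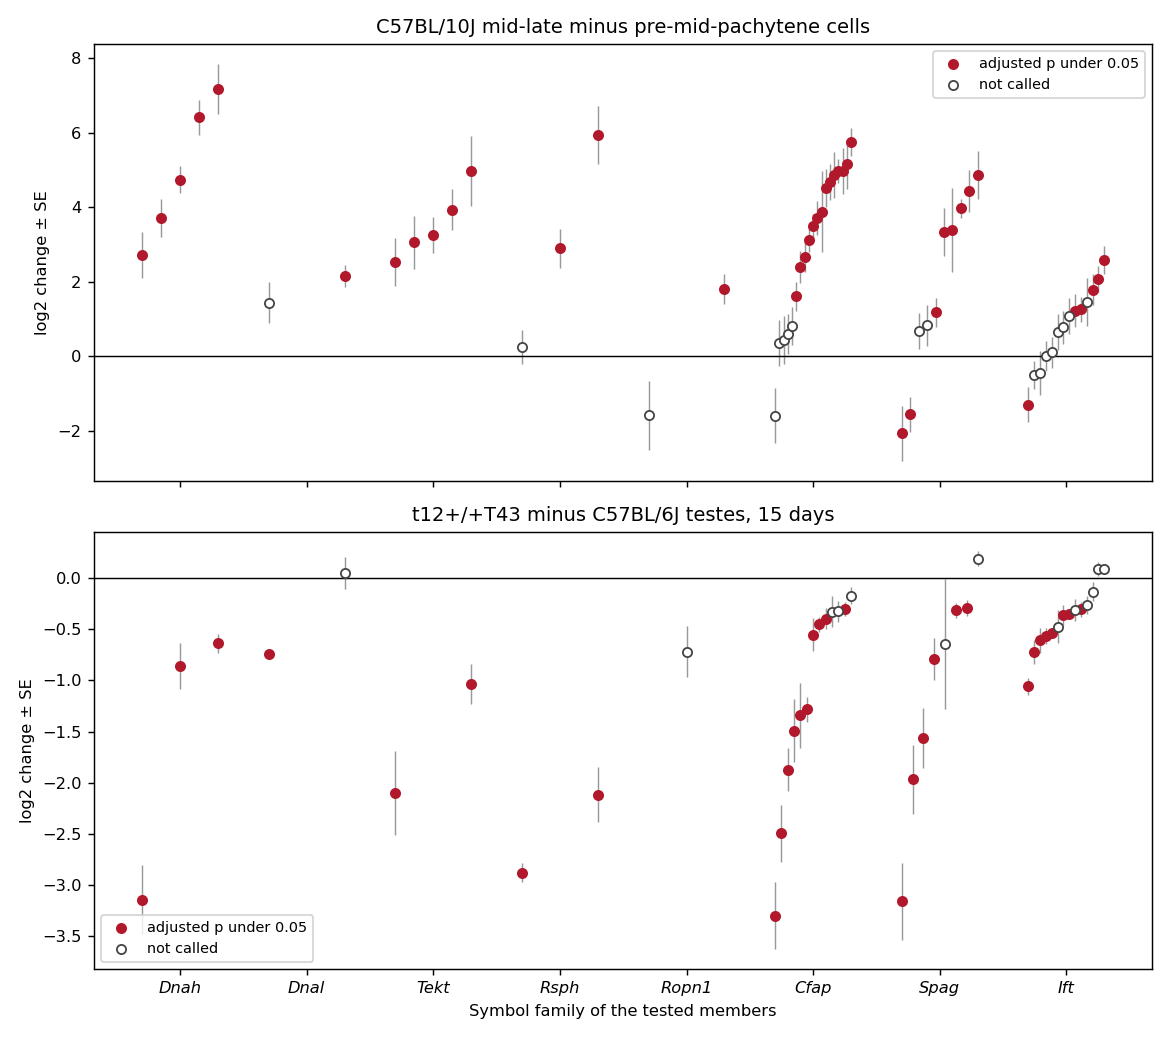
Log2 change ± standard error of each tested gene, by symbol family, in mid-late against pre-mid-pachytene C57BL/10J cells (top, 60 genes) and in t12+/+T43 against C57BL/6J testes (bottom, 45 genes). Filled points passed an adjusted p of 0.05. In the top panel all Dnah and Tekt points are filled and above 0, and in the bottom panel every filled point is below 0.

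Pre-mid-pachytene cells of both carriers lay below the mid-late control in most of these genes. In t12+/+T43 cells 45 of 60 fell and 2 rose (limma, adjusted p under 0.05), against 30.2% and 34.2% of all genes. In Ttf+/+T43H cells 42 of 60 fell and 1 rose, against 28.6% and 31.7% of all genes. Both comparisons set an earlier against a later stage as well as carrier against control, and they share the mid-late arrays. Cfap157, among the falls of both carriers, passed the filter only through those arrays. The rises were Spag9 in both carriers (2.63 ± 0.43 in t12+/+T43 and 2.15 ± 0.43 in Ttf+/+T43H cells) and Ift81 in t12+/+T43 cells (1.31 ± 0.43).

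Set against C57BL/10J cells of the same stage, t12+/+T43 spermatocytes had lower levels of tektins, ropporin and a group of doublet and spoke genes. Of the 60 tested genes 15 fell and 0 rose (limma, adjusted p under 0.05), against 5.83% and 3.24% of all 9666 genes. The 60 genes had a median change of -0.50, against 0.06 over all genes. Of the 15, only 7 read at least 4 on every array of both groups, so for the other 8 the size of the fall depends on values near background. Leaving out either C57BL/10J pre-mid array left few calls, 2 without replicate 1 and 4 without replicate 2. Without replicate 2 of both carriers the count was 27, of which 24 fell, among them all 15, and 3 rose. The share over all genes in that fit is not given here. Tekt5 and Cfap161 passed with each single array left out.

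Ropn1 read 3.16, 6.31 and 3.49 in t12+/+T43 cells, against 9.67 and 8.93 in C57BL/10J cells (-4.98 ± 0.85, limma adjusted p = 0.0089). Spag4 read 3.56, 3.92 and 3.11 in t12+/+T43 cells, against 8.74 and 8.02 in C57BL/10J cells (-4.85 ± 0.68, limma adjusted p = 0.0039). Cfap97d1 read 2.08, 4.18 and 2.02 in t12+/+T43 cells, against 7.11 and 6.44 in C57BL/10J cells. These are the 3 largest falls. Ropn1l, the second ropporin, read 14.12, 13.85 and 13.81 in t12+/+T43 cells, against 13.42 and 13.37 in C57BL/10J cells, and did not pass (0.53 ± 0.36, limma adjusted p = 0.47). The groups did not overlap in any of these 4 genes, and replicate 2 was the highest of the t12+/+T43 arrays for the 3 that fell.

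Tekt5 read 2.76, 2.76 and 2.57 in t12+/+T43 cells, against 6.59 and 6.68 in C57BL/10J cells (-3.94 ± 0.51, limma adjusted p = 0.0027). Tekt3 read 2.98, 6.14 and 2.84 in t12+/+T43 cells, against 7.85 and 7.14 in C57BL/10J cells (-3.51 ± 0.86, limma adjusted p = 0.039). Tekt2 read 4.36, 6.68 and 5.11 in t12+/+T43 cells, against 8.68 and 8.03 in C57BL/10J cells. All t12+/+T43 arrays were below both controls, with replicate 2 closest to them for Tekt2 and Tekt3. Tekt4 fell as well, with 5.00, 5.68 and 4.67 in t12+/+T43 cells, against 7.57 and 7.29 in C57BL/10J cells. Tekt1, at 9.40, 9.20 and 8.47 in t12+/+T43 cells, against 10.13 and 10.35 in C57BL/10J cells, did not pass (-1.22 ± 0.59, limma adjusted p = 0.27).

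Cfap161 read 3.76, 4.02 and 3.50 in t12+/+T43 cells, against 7.23 and 6.78 in C57BL/10J cells (-3.25 ± 0.35, limma adjusted p = 0.0013). Cfap53 read 2.67, 4.90 and 3.11 in t12+/+T43 cells, against 6.80 and 5.99 in C57BL/10J cells. The remaining calls fell by 1.87 to 2.53: Rsph1, Rsph9, Cfap126, Cfap57, Cfap221 and Ift140. Rsph1 read 12.15, 13.02 and 12.15 in t12+/+T43 cells, against 14.77 and 15.17 in C57BL/10J cells, without overlap. None of the 5 tested dynein heavy chains passed. Dnah8 read 8.79, 10.67 and 8.55 in t12+/+T43 cells, against 11.03 and 10.70 in C57BL/10J cells (-1.53 ± 0.57, limma adjusted p = 0.15).

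The spermatid list was lower on the same arrays. In t12+/+T43 cells 20 of its 28 genes fell and 0 rose, with a median change of -4.32, and Prm2, a protamine of condensed sperm chromatin, fell by 6.91 ± 0.42. Of 14 fibrous sheath and outer dense fibre genes 11 fell, among them Gapdhs, the glycolytic enzyme of the sperm tail, by 6.69 ± 0.51. The t12+/+T43 array with the highest spermatid level, replicate 2 at 6.42, was also the highest of its group for 13 of the 15 genes that fell, Cfap126 and Cfap221 being the exceptions. At the same time 5 of 11 tested Sertoli genes rose, and the 3' to 5' differences of Gapdh and of actin were higher. A list of Leydig cell genes averaged 7.89, 7.99 and 9.80 in t12+/+T43 cells, against 6.30 and 5.04 in C57BL/10J cells, and 2 of its 6 tested genes rose and 0 fell, with a median change of 3.81. Mid-late-pachytene and meiotic division genes, a further list, averaged 9.83, 10.36 and 9.70 in t12+/+T43 cells, against 11.27 and 11.19 in C57BL/10J cells. Of its 17 tested genes 3 fell and 0 rose, against 5.83% and 3.24% of all genes. The part of spermatid RNA, Sertoli RNA, Leydig RNA, RNA quality and stage within the sorted cells in the 15 falls was not tested.

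**Figure D3:**
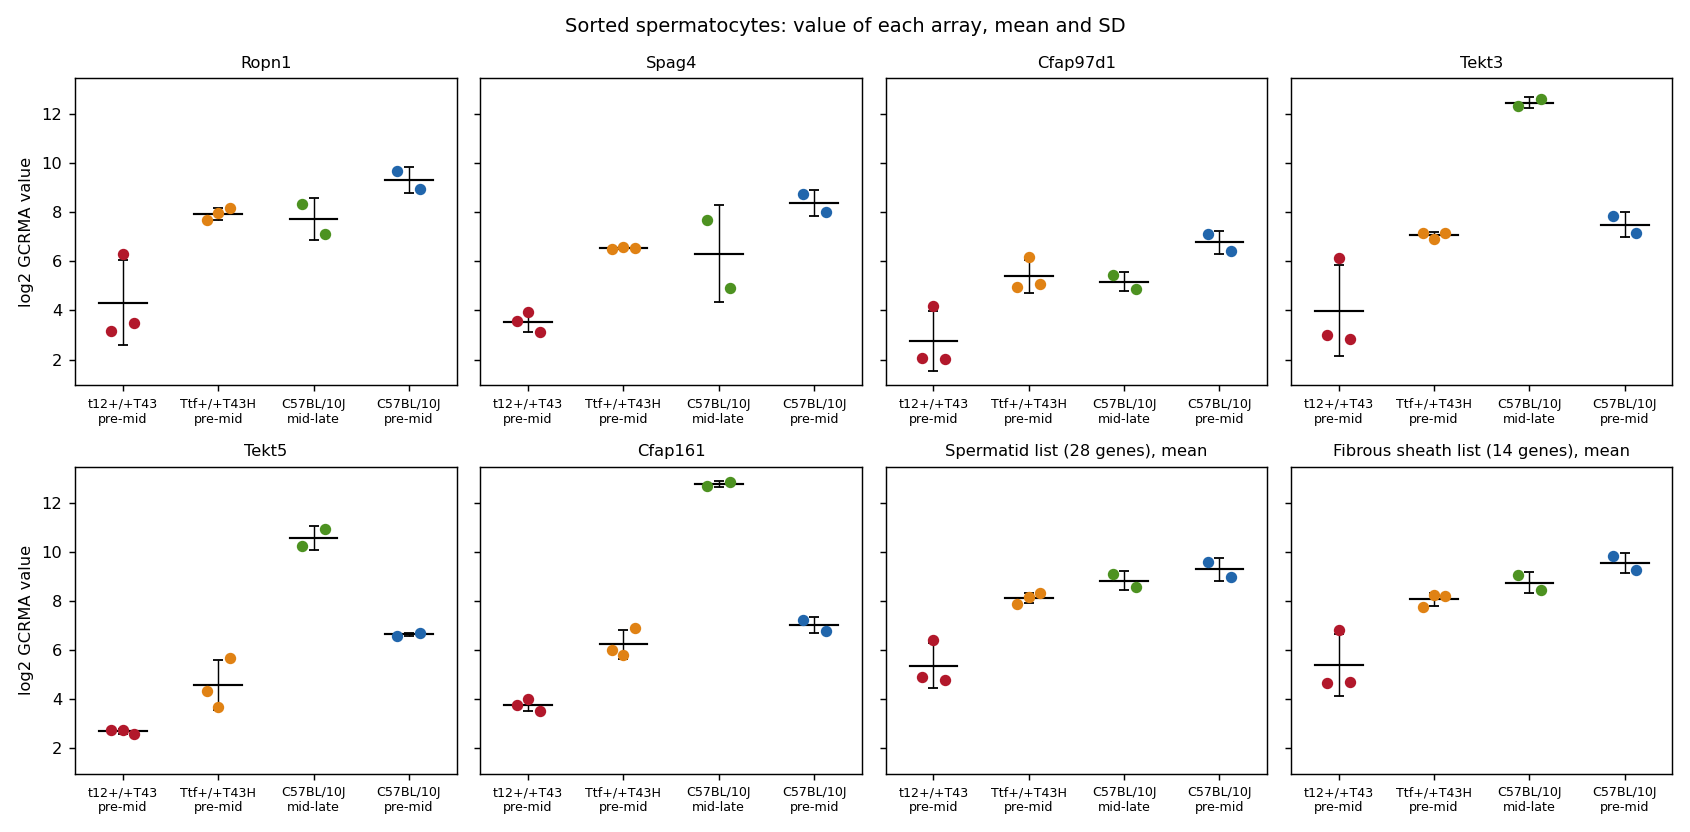
Log2 value on each array of the sorted cells for 6 genes and, in the last 2 panels, the mean of the spermatid list (28 genes) and of the fibrous sheath list (14 genes). Points are arrays, lines the group mean and bars the SD (n = 3 for each carrier group, n = 2 for each C57BL/10J group). Ropn1, Spag4, Cfap97d1 and both lists have their highest mean in pre-mid C57BL/10J cells and their lowest in t12+/+T43 cells, while Tekt3, Tekt5 and Cfap161 are highest in mid-late cells.

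In Ttf+/+T43H spermatocytes 1 of 60 genes fell and 0 rose against C57BL/10J cells of the same stage (limma, adjusted p under 0.05), against 1.47% and 0.59% of all genes. At an unadjusted p under 0.05, 10 of the 60 passed, a share close to that over all genes, 1731 of 9666. The fall was that of Rsph1, with 13.05, 12.14 and 13.40 in Ttf+/+T43H cells, against 14.77 and 15.17 in C57BL/10J cells (-2.11 ± 0.42, limma adjusted p = 0.046). The groups did not overlap, but the call was lost without Ttf+/+T43H replicate 1, Ttf+/+T43H replicate 3 or either control array. The count was 2 without Ttf+/+T43H replicate 2, 13 (7 fell and 6 rose) without replicate 2 of both carriers, and 7 in 1 fit of all 18 arrays. Shares over all genes in those fits are not given here. Tekt5 read 4.32, 3.70 and 5.69 in Ttf+/+T43H cells, against 6.59 and 6.68 in C57BL/10J cells (-2.06 ± 0.51, limma adjusted p = 0.079), and Rsph9 read 7.14, 6.70 and 7.86 in Ttf+/+T43H cells, against 9.47 and 9.09 in C57BL/10J cells (-2.04 ± 0.47, limma adjusted p = 0.066). Ropn1, at 7.69, 7.97 and 8.16 in Ttf+/+T43H cells, was 1.36 ± 0.85 lower than in the control and did not pass (limma adjusted p = 0.46).

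Between the carriers, t12+/+T43 against Ttf+/+T43H spermatocytes, 1 of 60 genes fell and 0 rose (limma, adjusted p under 0.05), against 0.693% and 0.0621% of all genes. Cfap161 read 3.76, 4.02 and 3.50 in t12+/+T43 cells, against 6.01, 5.80 and 6.89 in Ttf+/+T43H cells (-2.47 ± 0.31, limma adjusted p = 0.016). The call was lost without t12+/+T43 replicate 1 or replicate 3, and the count was 10 without replicate 2, 17 (all lower) without replicate 2 of both carriers, and 13 in 1 fit of all 18 arrays. The shares over all genes above belong to the main fit, and those of these other fits are not given here. The t12+/+T43 values lie at or near the level of 4, so the size of this fall is approximate. The largest differences that did not pass were those of Ropn1 (-3.62 ± 0.76, limma adjusted p = 0.083), Tekt3 (-3.08 ± 0.77), Spag4 (-3.02 ± 0.61), Tekt2 (-2.82 ± 0.58) and Cfap97d1 (-2.64 ± 0.60). For Spag4 the 2 groups were separate by more than 2 log2 units, with 6.52, 6.60 and 6.53 in Ttf+/+T43H cells. In the spermatid list 8 of 28 genes fell in this comparison.

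At 15 days, t12+/+T43 testes had lower levels of genes of the dynein arms, spokes, central apparatus, doublets and intraflagellar transport than C57BL/6J testes. Of the 45 tested genes 32 fell and 0 rose (limma, adjusted p under 0.05), against 11.3% and 10.5% of all 9134 genes tested. Their median change was -0.60, against 0.02 over all genes. Of the 66 genes, 38 read at least 4 on every array of both groups, and 26 of these fell. On 40 of the 45 genes all t12+/+T43 arrays lay below both C57BL/6J arrays, which held for 26.6% of all genes. Without C57BL/6J replicate 1 the count was 15 and without replicate 2 it was 20, and 16 of the 32 passed in every such fit in which they were tested. Among the 16 are Spag8 and Spag16, which the filter left out of the fits without either C57BL/6J array. Those fits could therefore not lose them. In 1 fit of all 18 arrays, where the sorted cells share in the estimate of spread, 7 passed.

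Dnah8 read 6.12, 5.64 and 5.71 in t12+/+T43 testes, against 9.12 and 8.82 in C57BL/6J testes (-3.14 ± 0.34, limma adjusted p = 0.0015). The 2 other tested heavy chains fell less, Dnah1 by 0.86 ± 0.22 and Dnah2 by 0.64 ± 0.09. Dnal1, a light chain of the outer arm, read 6.18, 6.21 and 6.17 in t12+/+T43 testes, against 6.93 and 6.91 in C57BL/6J testes (-0.74 ± 0.04, limma adjusted p = 0.00011). For Dnal1 the arrays of each group lay close together and the groups did not overlap.

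Rsph1 read 10.43, 10.25 and 10.26 in t12+/+T43 testes, against 13.26 and 13.12 in C57BL/6J testes (-2.88 ± 0.09, limma adjusted p = 6.0e-06). Rsph9 read 3.61, 3.49 and 3.29 in t12+/+T43 testes, against 5.88 and 5.28 in C57BL/6J testes (-2.12 ± 0.27). Rsph9 was thus below the level of 4 on every t12+/+T43 array and above it on both controls. Of the central apparatus, Spag6l, whose sequence before the start is shown above, read 5.75, 5.60 and 4.59 in t12+/+T43 testes, against 8.55 and 8.39 in C57BL/6J testes (-3.16 ± 0.38, limma adjusted p = 0.0022). Spag16 read 2.65, 2.56 and 2.54 in t12+/+T43 testes, against 4.58 and 4.52 in C57BL/6J testes. Spag16 and Spag8, which also fell, reached the level of 4 only on the C57BL/6J arrays. Both passed the filter only through the group where they are high, so their falls are not support for a difference. Spag17 varied within groups and did not pass (-0.64 ± 0.63, limma adjusted p = 0.50).

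Cfap57 also fell, with 3.66, 2.54 and 3.25 in t12+/+T43 testes, against 6.57 and 6.33 in C57BL/6J testes (-3.30 ± 0.33, limma adjusted p = 0.0011). All 3 t12+/+T43 values lie below the level of 4, so the size of this fall is not exact. Cfap65, a protein of the sperm flagellum, read 5.89, 5.67 and 4.92 in t12+/+T43 testes, against 8.20 and 7.78 in C57BL/6J testes. In the Cfap family 10 of 13 fell, and Cfap20, Cfap97 and Cfap298 did not pass. Tekt1 read 7.38, 7.004 and 5.91 in t12+/+T43 testes, against 8.98 and 8.75 in C57BL/6J testes (-2.10 ± 0.41, limma adjusted p = 0.013), and Tekt2 read 4.31, 3.77 and 3.97 in t12+/+T43 testes, against 5.25 and 4.86 in C57BL/6J testes. The t12+/+T43 testes lay below the controls for both tektins. The Ift genes fell by small amounts, 8 of 14 passing with a family median of -0.36. Ift140 fell most, with 9.52, 9.38 and 9.54 in t12+/+T43 testes, against 10.63 and 10.44 in C57BL/6J testes. Ropn1l read 11.89, 11.69 and 11.13 in t12+/+T43 testes, against 12.41 and 12.16 in C57BL/6J testes (-0.72 ± 0.25, limma adjusted p = 0.083).

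**Figure D4:**
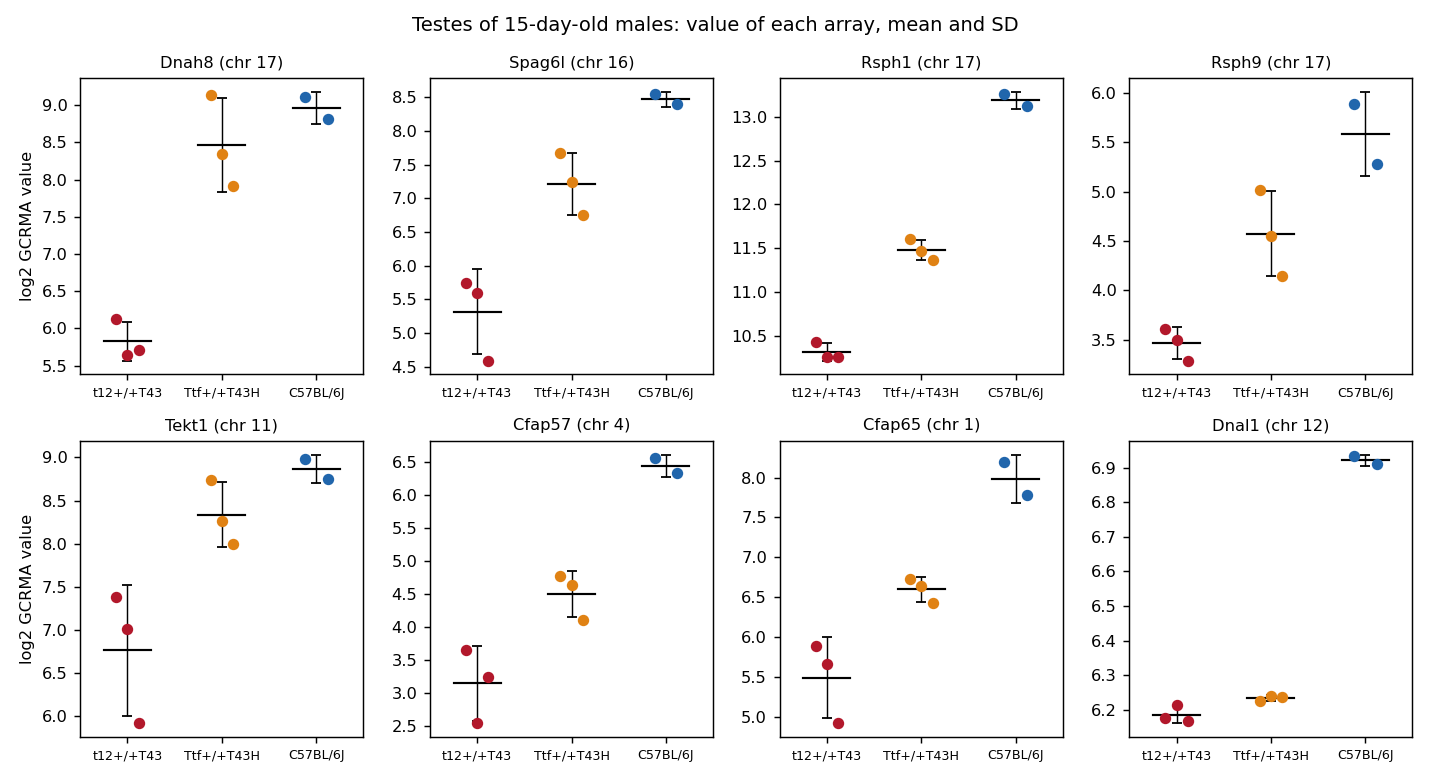
Log2 value on each array of the 15-day testes for 8 genes, with the group mean (line) and SD (bar), n = 3 for t12+/+T43, n = 3 for Ttf+/+T43H and n = 2 for C57BL/6J. Each panel has its own vertical scale. The t12+/+T43 points lie below both C57BL/6J points in all 8 panels, and the Dnah8 points of Ttf+/+T43H males overlap with the C57BL/6J points while those of Dnal1 lie close to the t12+/+T43 points.

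Ttf+/+T43H testes differed from C57BL/6J testes in fewer of these genes. Of 45 genes 9 fell and 0 rose (limma, adjusted p under 0.05), against 4.7% and 3.86% of all genes. The 9 were Cfap57, Rsph1, Cfap65, Cfap126, Tekt2, Ift140, Cfap69, Dnal1 and Ift43. Rsph1 read 11.60, 11.47 and 11.37 in Ttf+/+T43H testes, against 13.26 and 13.12 in C57BL/6J testes (-1.71 ± 0.09, limma adjusted p = 8.0e-05). Cfap57 read 4.77, 4.64 and 4.11 in Ttf+/+T43H testes, against 6.57 and 6.33 in C57BL/6J testes (-1.94 ± 0.33, limma adjusted p = 0.015). In both genes the Ttf+/+T43H arrays lay between the t12+/+T43 and the C57BL/6J arrays.

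Dnal1 read 6.22, 6.24 and 6.24 in Ttf+/+T43H testes, 0.69 ± 0.04 below the controls (limma adjusted p = 0.00018). Cfap65 read 6.73, 6.64 and 6.43 in Ttf+/+T43H testes and Cfap126, a protein of the doublet lumen, read 6.22, 5.93 and 5.90, against 7.20 and 6.91 in C57BL/6J testes for Cfap126. Ift140 read 9.80, 9.66 and 9.66, Cfap69 read 4.91, 4.87 and 4.83, and Tekt2 read 4.34, 3.93 and 4.08 in Ttf+/+T43H testes. Each of these genes was below both C57BL/6J arrays on every Ttf+/+T43H array. Dnah8 did not pass, with 9.15, 8.34 and 7.91 in Ttf+/+T43H testes, which overlapped the controls (-0.50 ± 0.34, limma adjusted p = 0.40). The count of 9 was 5 without Ttf+/+T43H replicate 2, 3 without C57BL/6J replicate 1 and 4 without C57BL/6J replicate 2, and Rsph1, Dnal1 and Ift140 passed in each of these fits. In 1 fit of all 18 arrays the count was 2.

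The direct comparison of the carrier stocks does not involve the C57BL/6J strain. In t12+/+T43 testes 16 of 45 genes fell and 0 rose against Ttf+/+T43H testes (limma, adjusted p under 0.05), against 3.92% and 1.07% of all genes. The change was negative in 44 of the 45, with a median of -0.40 against 0.02 over all genes. On 34 genes all t12+/+T43 arrays lay below all Ttf+/+T43H arrays, which held for 16.1% of all genes. Dnah8 fell by 2.64 ± 0.30 (limma adjusted p = 0.017) and Spag6l by 1.91 ± 0.34 (limma adjusted p = 0.038), Spag6l with 7.67, 7.24 and 6.75 in Ttf+/+T43H testes. Cfap299 read 5.69, 5.47 and 4.80 in t12+/+T43 testes, against 7.40, 6.88 and 6.71 in Ttf+/+T43H testes (-1.68 ± 0.28, limma adjusted p = 0.036). These 3 genes were separate between the stocks on every array.

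Rsph1 fell by 1.17 ± 0.08 (limma adjusted p = 0.0018), and it alone passed with each single array left out. Rsph9 fell by 1.10 ± 0.24, with 5.01, 4.55 and 4.15 in Ttf+/+T43H testes, and Cfap57 by 1.36 ± 0.29. Ropn1l fell by 1.07 ± 0.22, with 12.92, 12.69 and 12.31 in Ttf+/+T43H testes, and Ift172, a large protein of the anterograde complex, by 0.72 ± 0.14. The other 8 calls fell by 0.27 to 0.59, among them Dnah2, Ift27, Ift22, Ift43 and Ift88. Most calls lay close to the threshold. The count was 2 without Ttf+/+T43H replicate 1, 1 without its replicate 2 and 25 without its replicate 3. Without t12+/+T43 replicate 2 or replicate 3 it was 1, and in 1 fit of all 18 arrays 0 passed.

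Transcripts of later meiotic cells were lower on the same testis arrays. A list of mid-late-pachytene and meiotic division genes averaged 7.90, 7.82 and 7.57 in t12+/+T43 testes, 8.54, 8.34 and 8.13 in Ttf+/+T43H testes and 8.73 and 8.53 in C57BL/6J testes. Of its 14 tested genes 11 fell in t12+/+T43 against C57BL/6J testes, 7 fell in t12+/+T43 against Ttf+/+T43H testes and 3 fell in Ttf+/+T43H against C57BL/6J testes. Pgk2, a germ cell glycolytic enzyme, fell by 2.75 ± 0.19 in t12+/+T43 testes against C57BL/6J testes. The part of the number of such cells in the falls of axonemal genes was not tested. The spermatid list read 3.15 to 3.67 on all testis arrays, with 7 of its 28 genes tested, and Sertoli genes read 9.93 to 10.23.

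The stage comparison in sorted cells and the testis comparisons share no array. Of the 39 genes that rose in mid-late against pre-mid-pachytene C57BL/10J cells, 23 (59.0%) fell in t12+/+T43 against C57BL/6J testes, and these are 71.9% of the 32 that fell there. In the testes 12 of the 39 were not tested, so the 23 are 85.2% of the 27 tested. The 23 include Spag8 and Spag16, which passed the testis filter only through the C57BL/6J arrays. Over all genes, 1776 that rose in mid-late cells were tested in the testes, and 24.5% of these fell in t12+/+T43 testes. The 9 that fell in the testes without a rise in mid-late cells were Cfap36, Cfap300, Cfap410, Ift22, Ift80, Ift88, Rsph1, Spag5 and Spag7. Of these, Rsph1 fell by 2.88 and the others by at most 0.56. Over the 45 genes tested in both, the 2 changes had a Pearson correlation of -0.52 and a Spearman correlation of -0.69. Over all 8187 genes tested in both, the values were -0.34 and -0.35. These correlations are across genes, which are not independent, and have no test.

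Whether the t12+/+T43 minus Ttf+/+T43H change was unequal in spermatocytes and in testes was tested in 1 fit of all 18 arrays, and Cfap161 was the only one of 60 genes called. The share over all 10623 genes of that fit was 0.668% lower and 0.0659% higher. In sorted cells t12+/+T43 minus Ttf+/+T43H was -2.47. In testes it was -0.18, with 5.74, 5.88 and 6.18 in t12+/+T43 testes, against 6.20, 5.86 and 6.27 in Ttf+/+T43H testes, which overlapped. The difference of the differences was -2.29 ± 0.36 (limma adjusted p = 0.0068). The sorted t12+/+T43 values of Cfap161, 3.76, 4.02 and 3.50, are at or near the level of 4, so its size is approximate. Ropn1 (-3.62, limma adjusted p = 0.085), Spag4 (-2.92, limma adjusted p = 0.089) and Tekt2 (-2.72, limma adjusted p = 0.099) did not pass. The count was 9 without t12+/+T43 spermatocyte replicate 2 and 10 without replicate 2 of both carriers. Among the 60 genes, 15 did not pass the filter in the testes. The 3' to 5' differences of Gapdh and actin given above were lower in the testes than in the sorted cells, and their part was not tested.

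Members on chromosomes 16 and 17, the chromosomes of the T43 translocation, were counted apart. Chromosome 16 holds Cfap298, Ift57, Ropn1, Spag6l and Tekt5, and chromosome 17 holds Dnah8, Ift140, Rsph1, Rsph9 and Tekt4. In t12+/+T43 against C57BL/6J testes 6 of 7 tested genes there fell, with a median of -2.12, and 26 of 38 genes on other chromosomes, with a median of -0.54. Over all genes tested, 24.1% on chromosomes 16 and 17 fell and 10.2% on other chromosomes. In t12+/+T43 against C57BL/10J spermatocytes 6 of 10 fell there, and 9 of 50 elsewhere, against 12.3% of all genes tested on chromosomes 16 and 17 and 5.26% elsewhere. The gene on these chromosomes that did not pass in the testes was Cfap298, a factor of dynein arm assembly, with 9.64, 9.56 and 9.20 in t12+/+T43 testes, against 9.80 and 9.78 in C57BL/6J testes. Ift57 fell by 0.60 ± 0.12, with 9.23, 8.98 and 9.01 in t12+/+T43 testes, against 9.73 and 9.63 in C57BL/6J testes. The difference between these chromosomes and the others was not tested.

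Genes of the same pathway outside the symbol rule were counted from separate lists. Of 25 tested genes for docking complexes, length rulers and the nexin-dynein regulatory complex, 20 rose and 2 fell in mid-late against pre-mid-pachytene cells, and of 15 tested in testes 13 fell and 0 rose in t12+/+T43 against C57BL/6J males. Tcte1, of the nexin-dynein complex, rose by 6.95 ± 0.30 in mid-late cells, and Hydin, of the central apparatus, by 5.49 ± 0.43. In t12+/+T43 testes Enkur fell by 1.32 ± 0.12 and Dnali1, an inner arm light intermediate chain, by 2.32 ± 0.23. Of 12 dynein assembly factors 9 rose in mid-late cells, Dnaaf1 by 3.85 ± 0.41, and 6 fell in t12+/+T43 against C57BL/6J testes, Zmynd10 by 1.26 ± 0.23.

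Genes of cytoplasmic dynein and of the BBSome serve transport in many cell types. Over all genes 26.2% rose and 30.3% fell in mid-late cells, and 11.3% fell in t12+/+T43 against C57BL/6J testes. Of 12 cytoplasmic dynein and light chain genes 2 rose and 3 fell in mid-late cells, and 2 fell in t12+/+T43 against C57BL/6J testes. Of 20 genes of the BBSome and of anterograde ciliary motors 2 rose and 3 fell in mid-late cells, and 2 of 19 fell in the testes. Of 10 tested transcription factors tied to ciliary or pachytene genes 1 rose and 2 fell in mid-late cells. Mybl1, a master regulator of pachytene transcription, rose by 1.52 ± 0.33, Taf7l, an X-linked subunit of the germ cell transcription machinery, fell by 9.01 ± 0.64 and E2f5 by 4.27 ± 0.39. In the testes 1 of 8 rose (Taf7l, 0.32 ± 0.05) and 1 fell (Crem) in t12+/+T43 against C57BL/6J males, and 2 fell (Rfx4, by 1.30 ± 0.26, and Crem) and 0 rose in t12+/+T43 against Ttf+/+T43H males. Crem, the activator of many spermatid genes, fell by 1.07 ± 0.19 in t12+/+T43 against C57BL/6J testes and by 0.77 ± 0.17 against Ttf+/+T43H testes. Rfx2 read 9.43 and 9.62 in mid-late cells, against 6.88 and 7.12 in pre-mid cells, and did not pass (2.53 ± 1.39). Its t12+/+T43 pre-mid arrays spanned 9.34, 5.35 and 8.27.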

How the data were processed

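RNA of 18 samples (20 to 30 ng each, per the labels' protocols) was amplified in a 2-cycle labelling and hybridised to 1-colour Affymetrix arrays. Deposited by the authors were log2 values from GCRMA, per the submitters' processing notes, for 16539 probe sets, 1 per Entrez gene. Which arrays were normalized together, the chip definition version and the genome build are not given in the sources used here. GEO annotation gave 1 symbol to 15780 probe sets, several to 0 and none to 759, and the unnamed ones were left out. Symbols were updated through Entrez IDs with RefSeq (GRCm38.p6), and both versions chose the same 66 genes.

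Values were used as deposited. Groups came from sample titles. Sorted cells (10 arrays, 9666 genes) and testes (8 arrays, 9134 genes) each had a fit of their own in limma 3.58.1 (R 4.3.3) with 1 mean per group, and p-values were adjusted over all genes tested by the Benjamini-Hochberg method. A gene needed a log2 value of at least 4 on at least 2 arrays of the fit, and was called at an adjusted p under 0.05. All 18 arrays were fitted together for the difference between tissues. The scripts were tested on simulated data. Precision is limited by the number of arrays. The genes and lists were chosen with earlier results of these data known. Values on every array are given for the largest called changes of a comparison, the tektins, the ropporins and genes on chromosomes 16 and 17. Between t12+/+T43 and C57BL/6J testes 3 further lists held few called genes: Leydig 1 of 6, peritubular and endothelial 1 of 7, and macrophage and blood 1 of 6, all lower. Of 3 tested multiciliated cell genes 1 rose and 1 fell in that comparison. In sorted cells, of 6 Leydig genes 5 rose and 0 fell in t12+/+T43 and 3 rose and 1 fell in Ttf+/+T43H against mid-late C57BL/10J cells, and 2 rose and 0 fell in t12+/+T43 against pre-mid C57BL/10J cells. Alternatives were the filter, quantile normalization, median centring, the variance prior, a replicate block, 1 fit of all arrays, and leaving out arrays.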

Additional observations from a re-analysis of the deposited data

Results flagged for a closer look

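For Cfap161, a gene of the doublet lumen, t12+/+T43 males differed from Ttf+/+T43H males by unequal amounts in sorted spermatocytes and in testes. The change on the log2 scale was -2.47 in sorted cells and -0.18 in testes, and the difference between them was -2.29 ± 0.36 (limma adjusted p = 0.0068, n = 3 arrays in each of the 4 carrier groups). The sorted t12+/+T43 values, 3.76, 4.02 and 3.50, are at or near the level of 4 under which a value carries little signal, so the size is approximate. It passed with each single array left out and in every other alternative run.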

How the results depend on the processing

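No called gene changed direction under any alternative run. Quantile normalization, median centring, a filter at log2 6, a variance prior with trend and robust settings, and symbols of the platform annotation alone kept every count of called genes within 1.5 times its value. With no filter the count was 0 for t12+/+T43 against Ttf+/+T43H spermatocytes, 0 for Ttf+/+T43H against C57BL/10J spermatocytes and 5 for t12+/+T43 against Ttf+/+T43H testes. In 1 fit of all 18 arrays these 3 counts were 13, 7 and 0, and in testes 2 genes passed for Ttf+/+T43H and 7 for t12+/+T43 against C57BL/6J. Without Ttf+/+T43H replicate 2 and t12+/+T43 replicate 3 of the sorted cells, a pair chosen with earlier results of these data known, the count was 0 for t12+/+T43 against Ttf+/+T43H spermatocytes, 2 for Ttf+/+T43H against C57BL/10J spermatocytes and 2 for the difference between tissues. By correlation with its group, however, replicate 2 and not replicate 3 is the t12+/+T43 array that stands apart. Without replicate 2 of both carriers, chosen after seeing the data, these 3 counts were 17, 13 and 10, and the count was 27 for t12+/+T43 against C57BL/10J spermatocytes. Shares over all genes under the alternatives are not given. The causes were not tested.

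Leaving out 1 array at a time gave 0 to 10 called genes for t12+/+T43 against Ttf+/+T43H spermatocytes, 0 to 2 for Ttf+/+T43H and 2 to 20 for t12+/+T43 against C57BL/10J spermatocytes, and 33 to 35 for mid-late against pre-mid cells. It gave 39 to 44 for Ttf+/+T43H and 40 to 46 for t12+/+T43 spermatocytes against mid-late cells. In testes the range was 1 to 25 for t12+/+T43 against Ttf+/+T43H, 3 to 10 for Ttf+/+T43H and 15 to 29 for t12+/+T43 against C57BL/6J, and it was 1 to 9 for the difference between tissues, 9 without t12+/+T43 spermatocyte replicate 2.

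Replicate numbers are shared between groups. Same-numbered arrays deviated together with correlations of 0.49, 0.04 and 0.68 for the carrier testes and 0.25, 0.02 and -0.35 for the carrier spermatocytes. In these, 4 of 6 and 2 of 6 arrays correlated best with their own number. The main fits did not take the numbers as pairs. In the testes the averages given above fell from replicate 1 to replicate 3 in both carrier stocks and from replicate 1 to replicate 2 in C57BL/6J males. The main testis fit did not model such a shared order of replicates. With the replicate block the count was 0 for t12+/+T43 against Ttf+/+T43H spermatocytes, 0 for Ttf+/+T43H and 7 for t12+/+T43 against C57BL/10J spermatocytes, 34 for t12+/+T43 against Ttf+/+T43H testes and 21 for Ttf+/+T43H against C57BL/6J testes.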

Other observations

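A few genes of the lists of other cytoplasmic dynein, ciliary motor and multiciliated cell genes had large changes. In mid-late against pre-mid-pachytene C57BL/10J cells Dynlt3, a light chain of cytoplasmic dynein, fell by 7.33 ± 0.42. In t12+/+T43 against C57BL/10J pre-mid-pachytene cells Deup1, a protein of centriole amplification in multiciliated cells, fell by 2.47 ± 0.34, and Kif17, a kinesin of cilia and of spermatids, by 3.59 ± 0.63. The Sertoli list was lower in the mid-late cells of the first comparison and higher in the t12+/+T43 cells of the other, by the levels given in the report, and its part in these changes was not tested.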
